A study of Homo sapiens with 6 samples.

Results

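STIM1::MXD3 against empty vector is the contrast described here, in K562 cells, an established line from chronic myeloid leukaemia. It rests on 4 of the 6 RNA-sequencing libraries of the series, chosen by their labels: 2 libraries from cells nucleofected with the pCMV-HA plasmid carrying STIM1::MXD3, and 2 from cells given the plasmid without an insert (EV). The remaining 2 libraries, from cells given wild-type MXD3 in the same plasmid, entered the fit and are quoted beside the results where they bear on them. All groups therefore share the parental line, the vector backbone and the transfection. The study describes the libraries of a group as independent transfections of cells of 1 line, and expression was transient, so the values are averages over transfected and untransfected cells. Fewer cells expressing a gene and less RNA per cell cannot be told apart in such bulk libraries. Libraries were paired by their replicate number, which gave pair 1 and pair 2.

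MXD3 belongs to a family of basic helix-loop-helix (bHLH) proteins that bind DNA as partners of MAX, at E-boxes that MYC and MAX also use. Its amino-terminal domain recruits SIN3 and histone deacetylases, so MXD proteins repress genes that MYC activates, among them genes for ribosome assembly, nucleotide synthesis and DNA replication. STIM1 is a calcium sensor of the endoplasmic reticulum (ER) membrane. In the fusion, the start of STIM1, which holds its ER signal peptide, takes the place of the repression domain of MXD3, and the DNA-binding region is kept. The comparison asks what this chimeric protein does to the transcriptome of a myeloid leukaemia line.

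The junction is marked by the primers that the study designed to amplify STIM1::MXD3 transcripts, which are shown because they lie on either side of it. Both forward primers lie in exon 1 of 13 of STIM1, in its coding part, at chr11:3877504-3877523 (STIM1-F) and chr11:3877565-3877583 (STIM1-F2) of GRCh37. Both reverse primers lie in coding sequence of exon 2 of 6 of MXD3, at chr5:176738414-176738433 (MXD3-R) and chr5:176738458-176738476 (MXD3-R2), and match the plus strand, opposite to MXD3. Exon 1 of STIM1 holds 139 of its 2148 coding bases, and exon 1 of MXD3 holds 70 of 618.
STIM1-F: gatgtatgcgtccgtcttgc
STIM1-F2: gcctcagccatagtcacag
MXD3-R: gtcgcttcttcctcctgtgg
MXD3-R2: cacagggacgcataaccat

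Total counts lay between 53048343 and 63835779 per library, and 17375 to 17836 genes had counts. All 14 markers that define K562, such as the embryonic globin gene HBE1 and the erythroid factor GATA1, had counts in the 4 libraries. Of 23 markers of other cell types, 18 to 20 had counts, with a summed level of 801.8 to 853.4 counts-per-million (CPM) of the raw library totals. The CPM of single genes given below are TMM-scaled. Most of this level came from epithelial markers. KRT8 had 20155 and 23398 counts in EV and 21055 and 22690 in STIM1::MXD3. KRT18 had 15979 and 19118, and 16413 and 20718. EPCAM had 4764 and 4715, and 5510 and 5008. The monocytic LYZ and the lymphoid CD3D had counts in each of the 4 too. The B-cell marker MS4A1, the basal keratin KRT5 and the endothelial CDH5 were at 0 in each of the 4. Replicates of STIM1::MXD3 differed more than those of EV, with a median chi-square of the 2 counts of a gene of 26.5 against 12.2. Mitochondrial genes held 2.73% and 1.54% of the counts in EV and 1.56% and 2.9% in STIM1::MXD3, so the direction of this share turned between the pairs.

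MXD3, on chromosome 5 at 176728462 to 176739758 of GRCh37, was present at 9.33 and 11.7 CPM in EV. It reached 1975 and 1849 CPM in STIM1::MXD3, which put both far above EV, and 2523 and 2162 CPM in the MXD3 libraries. The mean was 10.5 ± 1.67 CPM in EV and 1912 ± 89.4 CPM in STIM1::MXD3 (SD, n = 2). The log2 ratio was 7.72 in pair 1 and 7.30 in pair 2, and the fitted log2 fold change was 7.50 ± 0.14 (SE), or 181-fold, with an adjusted p of 2.57e-15 in the edgeR quasi-likelihood test. Between STIM1::MXD3 and MXD3 the log2 difference was -0.29 ± 0.10, with an edgeR adjusted p of 0.683. The groups did not overlap.

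STIM1, on chromosome 11 at 3875757 to 4114440 of GRCh37, rose too. Its level was 205 and 176 CPM in EV and 471 and 453 CPM in STIM1::MXD3, with no overlap, and it was 187 and 159 CPM in the MXD3 libraries. The mean was 190 ± 20.5 CPM in EV and 462 ± 13.0 CPM in STIM1::MXD3 (SD, n = 2). Pair 1 gave a log2 ratio of 1.20 and pair 2 of 1.37, and the fit gave 1.29 ± 0.08, or 2.44-fold, with an edgeR adjusted p of 4.27e-07. Without the pairing the log2 fold change was 1.28, with an edgeR adjusted p of 0.359. Reads of the plasmid's STIM1 exon and of the endogenous STIM1 transcript are summed in a count per gene, and cannot be told apart. The plot of the fusion partners shows how far each library lies from EV.

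**Figure D1:**
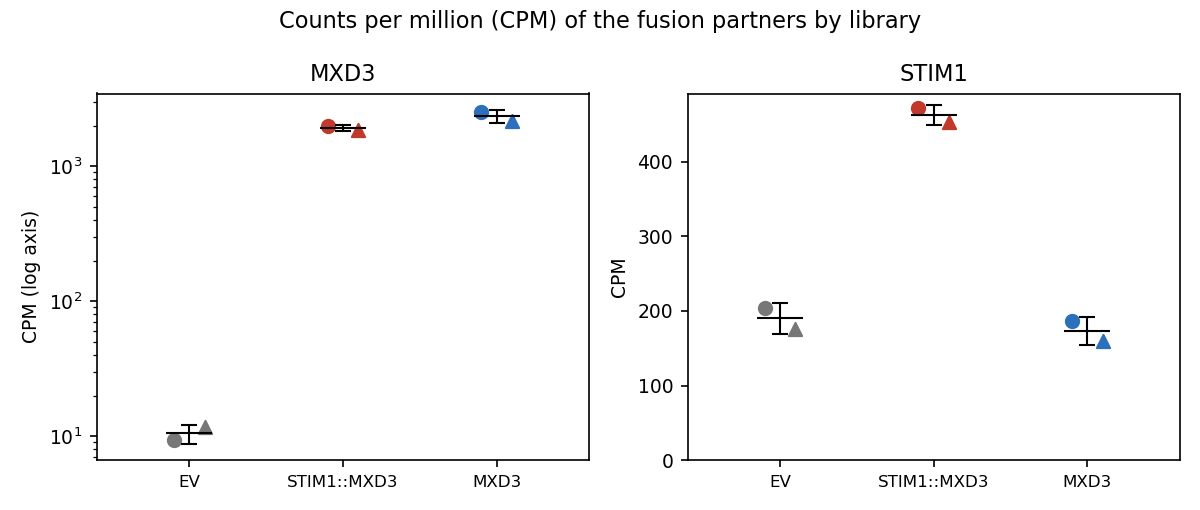
CPM of MXD3 (log axis) and STIM1 (linear axis from 0) in each library of EV, STIM1::MXD3 and MXD3; circles are replicate 1, triangles replicate 2, and bars the mean with its SD (n = 2). MXD3 lay at 1849 to 2523 CPM in all 4 libraries that received it, and STIM1 was raised in the 2 STIM1::MXD3 libraries, at 453 and 471 CPM.

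Of 15431 genes tested, 3 passed an adjusted p of 0.05 (0.0194%), 2 higher (0.013%) and 1 lower (0.00648%). The number called was 1 without the pairing, 29 with DESeq2 and the pairing, and 170, 83, 78 and 14 when EV replicate 1, EV replicate 2, STIM1::MXD3 replicate 1 or STIM1::MXD3 replicate 2 was left out. The 2 higher genes were MXD3 and STIM1, whose sequences the plasmid carries. The only lower one was VPS52, a subunit of vesicle-tethering complexes at the Golgi and endosomes, on chromosome 6 at 33218049 to 33239824. It had 0.628 and 7.66 CPM in EV, from 32 and 464 counts, and 0.0730 and 0.239 CPM in STIM1::MXD3, from 4 and 15 counts. Most of its EV counts thus came from EV replicate 2. The log2 fold change was -4.41 ± 0.60 (edgeR adjusted p 0.0092), and without EV replicate 2 it was -2.46 with an adjusted p of 0.813. Without STIM1::MXD3 replicate 2 it was -3.44 with an adjusted p of 0.163, and without the pairing -4.69 with an adjusted p of 1.

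VPS52 lies between 28 and 34 Mb of chromosome 6, a region of which hg19 as distributed holds further haplotype copies, so reads there may be lost or split. In this window 7 of 57 genes tested (12.3%) differed over 2-fold between the 2 EV libraries, against 141 of 15340 (0.919%) outside such regions. The value of VPS52 is therefore uncertain. The MXD3 libraries had 4 and 2 counts of VPS52, a log2 fold change of -5.84 over the same EV libraries (edgeR adjusted p 0.00268).

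The genes within 50 kb of the 2 partners had small differences. Around MXD3 the 5 genes tested (NSD1, RAB24, PRELID1, LMAN2 and RGS14) had log2 fold changes of -0.11 to 0.18, and around STIM1 the 3 genes tested (PGAP2, RHOG and RRM1) had -0.1 to 0.05. None was called, with a lowest edgeR adjusted p of 0.642 and 0.811.

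Pair 1 and pair 2 have no library in common, so their ratios can be set against each other. Among 10238 genes averaging 5 CPM or more, without MXD3 and STIM1, 2789 were higher and 2636 lower in both pairs, together 53%. Across these genes Pearson's r of the ratios was 0.028 and Spearman's rho 0.12, as a description, since genes are not independent replicates. The SD of the log2 ratio was 0.194 in pair 1 and 0.241 in pair 2, and no gene moved over 2-fold the same way in both. Outside MXD3 and STIM1 most ratios were thus small, as the plot of pair ratios shows.

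**Figure D2:**
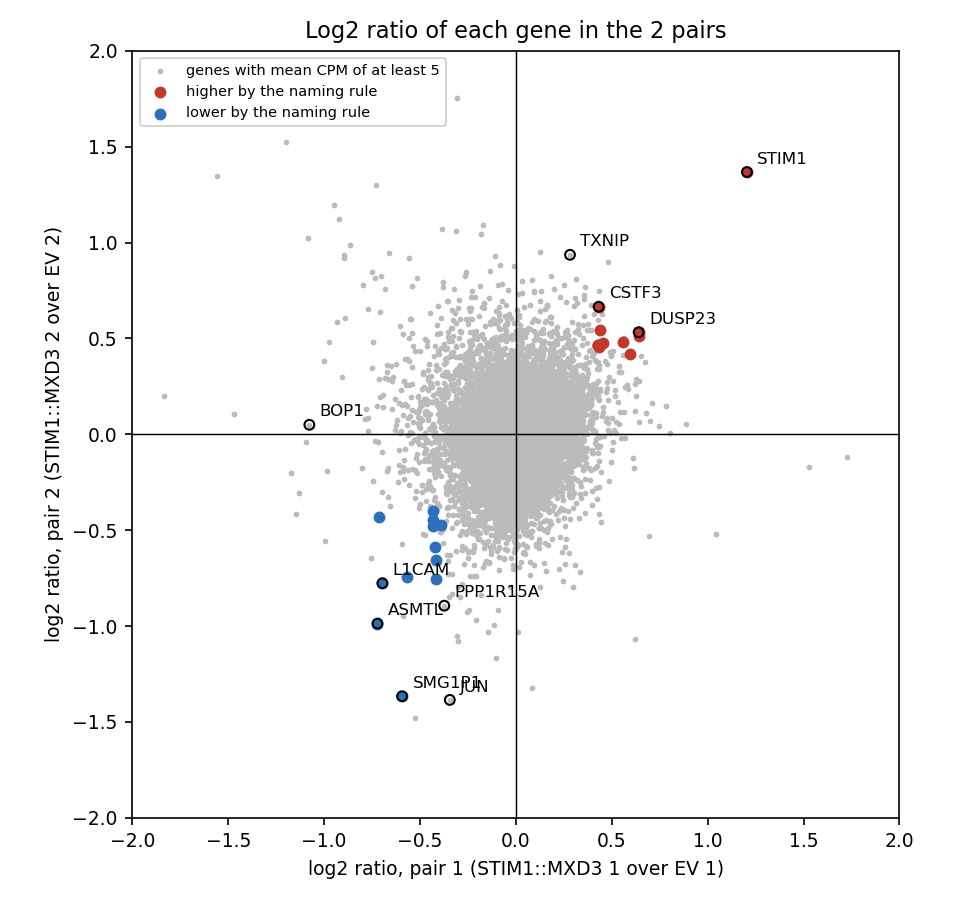
Log2 ratio of STIM1::MXD3 over EV in pair 1 (x axis) and pair 2 (y axis), 1 point per gene averaging 5 CPM or more, with the genes named by the rule in red (higher) and blue (lower) and circled labels for single genes. STIM1 stands alone at the upper right, at 1.20 and 1.37, the cloud shows little slope, and 4 genes, MXD3 among them, lie outside the axes.

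To name genes, those averaging 5 CPM or more and with no overlap between the groups were ranked by the smaller of their ratios in the 2 pairs. Over all genes tested, the groups did not overlap for 12% of genes on the higher side and 10% on the lower side. Among 10128 genes with a symbol, 1102 qualified on the higher and 866 on the lower side, and 12 of each were named. These values chose the genes and are a description. The last gene inside on the higher side was SCFD2 at 0.42 and the first outside was RBM4B at 0.41, and on the lower side the last inside was SPOPL at 0.39.

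Beside MXD3 and STIM1, the higher genes had log2 fold changes of 0.45 to 0.59 and edgeR adjusted p-values of 0.144 to 0.531. They were DUSP23, a small phosphatase, TAC3, the neurokinin B precursor, NR2C2AP, a nuclear receptor partner, NXPH4, a neurexophilin, TDRG1, ZNF566, a zinc finger protein, CSTF3, a subunit of the cleavage stimulation factor of mRNA 3' ends, DMAC1, a mitochondrial complex I assembly factor, C4orf46 and SCFD2. DUSP23 had 7.25 and 7.50 CPM in EV and 11.3 and 10.9 CPM in STIM1::MXD3. TAC3 had 4.42 and 4.64 CPM in EV and 6.91 and 6.65 CPM in STIM1::MXD3. CSTF3, with the lowest p of these, had 27.4 and 35.0 CPM in EV and 36.9 and 55.5 CPM in STIM1::MXD3, a log2 fold change of 0.55 ± 0.10 (edgeR adjusted p 0.144).

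In all 3 genes both STIM1::MXD3 libraries lay above both EV libraries, at low to moderate levels. The MXD3 libraries, which share the EV controls, had 12.7 and 10.8 CPM of DUSP23, 9.18 and 10.1 CPM of TAC3, and 39.0 and 50.6 CPM of CSTF3. Among the 10 higher genes other than MXD3 and STIM1, 6 had a mean under 20 CPM.

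The lower genes had log2 fold changes of -1.07 to -0.42 and edgeR adjusted p-values of 0.184 to 0.492. They were L1CAM, a neural adhesion molecule, YPEL3, AJM1, an apical junction protein, PLEKHM3, SAT2, a relative of the spermidine acetyltransferases, PARD3B, a cell polarity protein, PER1, a repressor of the circadian clock, SPOPL, an adaptor of a ubiquitin ligase, ASMTL, SMG1P1, GEMIN2P2 and SMPD4BP. The counts of SMG1P1, GEMIN2P2 and SMPD4BP are uncertain because they are near copies of other genes, and ASMTL lies in the pseudoautosomal end of X, which hg19 also holds on Y.

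L1CAM had 10.9 and 9.07 CPM in EV and 6.71 and 5.28 CPM in STIM1::MXD3, a log2 fold change of -0.74 ± 0.17 (edgeR adjusted p 0.272). PER1 had 35.0 and 27.7 CPM in EV and 25.9 and 21.0 CPM in STIM1::MXD3. YPEL3 had 32.8 and 27.8 CPM in EV and 24.3 and 20.4 CPM in STIM1::MXD3. The groups did not overlap, and for PER1 and YPEL3 the gap between the nearest libraries was smaller than the distance between the 2 EV libraries. In the MXD3 libraries L1CAM was at 5.82 and 4.93 CPM, PER1 at 31.0 and 24.2 CPM and YPEL3 at 19.5 and 20.1 CPM. None of the 22 genes other than MXD3 and STIM1 was called between STIM1::MXD3 and MXD3, with lowest edgeR adjusted p-values of 0.668 and 0.76 for the higher and lower genes. Between wild-type MXD3 and EV, TAC3 (log2 fold change 1.09, edgeR adjusted p 0.0240) and CSTF3 (0.52, 0.0482) were called higher. L1CAM (-0.89, 0.0465) and YPEL3 (-0.61, 0.0482) were called lower there. The rest of the 22 were not, in a comparison in which 0.292% of all genes were called. The same EV libraries entered the rule that chose the 22, which favours such calls. They are therefore a description and no independent result on wild-type MXD3.

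**Figure D3:**
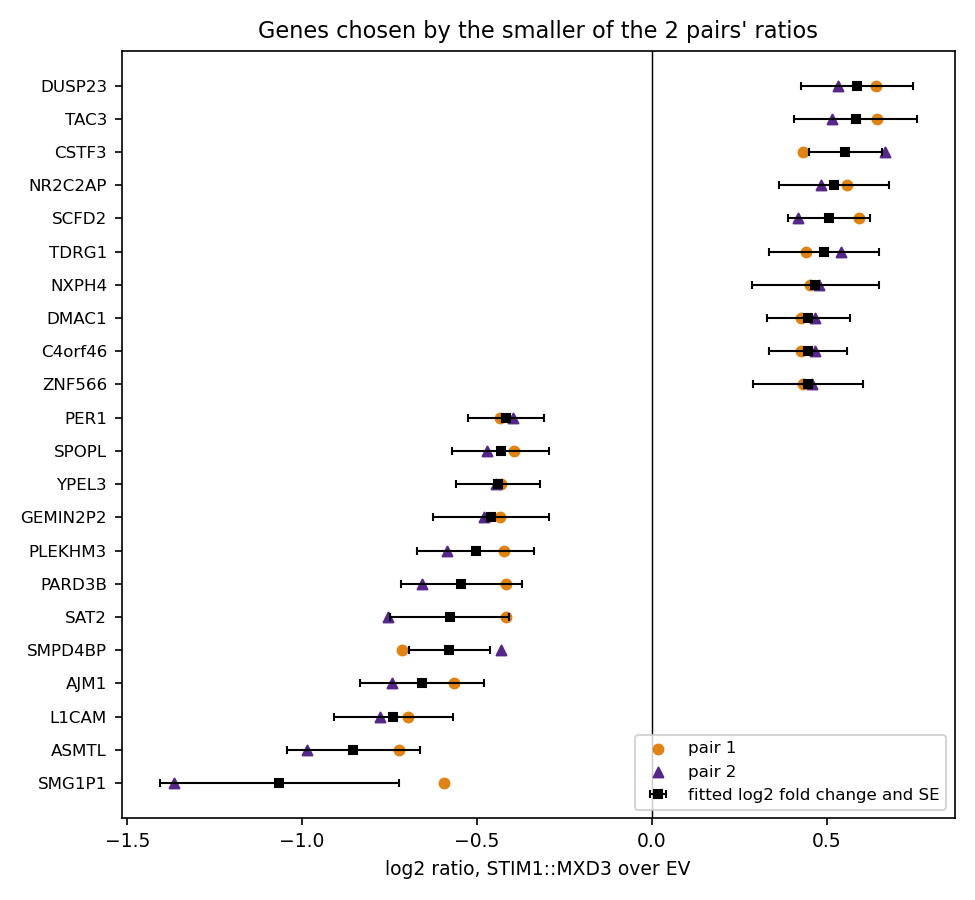
Log2 ratio of STIM1::MXD3 over EV (x axis) for the 10 higher and 12 lower genes named by the rule, without MXD3 and STIM1; circles are pair 1, triangles pair 2 and squares the fitted value with its SE. The ratio has the same sign in both pairs because the rule required it, and SMG1P1 has the widest gap between the pairs, at -0.59 and -1.37.

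Just short of being called stood 2 genes, both lower. PPP1R15A, which encodes the GADD34 subunit that directs a phosphatase to eIF2 alpha, had 559 and 486 CPM in EV and 431 and 262 CPM in STIM1::MXD3. Both fusion libraries lay below both EV libraries. Its log2 fold change was -0.63 ± 0.10 (edgeR adjusted p 0.0514), with -0.37 in pair 1 and -0.89 in pair 2, and it was 380 and 291 CPM in the MXD3 libraries. DUSP8, a phosphatase of stress-activated kinases that the naming rule did not select and that was picked after its values were seen, had 47.6 and 30.6 CPM in EV and 33.0 and 11 CPM in STIM1::MXD3. These groups overlapped, and the log2 fold change was -0.99 ± 0.16 (edgeR adjusted p 0.0514). DESeq2 with the pairing called PPP1R15A and DUSP8 (adjusted p 6.34e-05 for each). On the 4 libraries alone edgeR also called them (adjusted p 5.28e-07 and 3.06e-11). That fit had 1 residual degree of freedom, and the prior degrees of freedom that edgeR estimated were without limit. Its p-values therefore rest on a spread shared over genes and not on that of each gene. PPP1R15A passed the threshold in 8 of 14 alternatives, with adjusted p-values of 1.86e-09 to 1 over all of them, the latter without the pairing.

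Lists of genes were described next, each by its members tested. Over all genes tested, 27.1% were higher and 25.1% lower in both pairs, 8.5% had an unadjusted p under 0.05 (3.77% higher and 4.74% lower), and the median log2 fold change was 0.003. No member of any list was called over all genes, so the counts below give directions and not called changes. The ribosome lists, the MYC target list and the DNA replication list share genes, and members of a list are not independent replicates.

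Of 84 core MYC targets, 55 (65.5%) were higher and 6 lower in both pairs, and 19 were higher and 3 lower at an unadjusted p under 0.05. Their median log2 fold change was 0.103, with 0.164 in pair 1 and 0.07 in pair 2. UNG, the uracil DNA glycosylase, had the smallest p of the higher members, with 20.6 and 29.3 CPM in EV and 25.8 and 43.7 CPM in STIM1::MXD3, where the groups overlapped (log2 fold change 0.46 ± 0.12, edgeR adjusted p 0.355). The MXD3 libraries had 34.1 and 42.8 CPM of UNG, a log2 fold change of 0.64 over the same EV libraries (edgeR adjusted p 0.044, in a comparison in which 0.292% of genes were called). DDX18, a nucleolar helicase, had 91.9 and 101 CPM in EV and 117 and 120 CPM in STIM1::MXD3, with no overlap. SRM, the spermidine synthase, had ratios of 0.35 and 0.18.

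Assembly factors of the small ribosomal subunit were higher in both pairs in 43 of 63 cases (68.3%) and lower in 2, with 14 higher and 0 lower at an unadjusted p under 0.05 by edgeR and a median log2 fold change of 0.122. RRP12, which acts in export of pre-ribosomes, had 38.2 and 48.5 CPM in EV and 49.1 and 62.5 CPM in STIM1::MXD3. Its ratios were 0.36 and 0.37, and those of the snoRNP protein RRP9 were 0.26 and 0.46. Both RRP12 libraries of the fusion lay above both of EV, by less than 1 CPM between the nearest.

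Of 63 assembly factors of the large subunit, 36 (57.1%) were higher and 4 lower in both pairs, with a median of 0.104. MRTO4, a nucleolar factor of the large subunit, had 49.5 and 72.1 CPM in EV and 69.4 and 96.9 CPM in STIM1::MXD3, which overlapped, and ratios of 0.49 and 0.43 (log2 fold change 0.46 ± 0.09, edgeR adjusted p 0.185). The MXD3 libraries had 70.9 and 88.9 CPM of MRTO4. BOP1, of the same pathway, went the other way in pair 1 alone, at -1.08, with 0.05 in pair 2. RNA polymerase I and its factors were higher in both pairs in 14 of 23 and lower in 3, with a median of 0.087.

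Structural ribosomal proteins were counted apart from the assembly factors. Of 79 tested, 16 (20.3%) were higher and 23 (29.1%) lower in both pairs and the median log2 fold change was 0.004. For wild-type MXD3 against EV the median of these 79 was -0.24, and for STIM1::MXD3 less MXD3 it was 0.229. Neither median was tested. Mitochondrial ribosomal proteins were higher in both pairs in 30 of 74 (40.5%) and lower in 5, with a median of 0.044. The difference between these lists and the assembly factors was not tested.

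Enzymes of tRNA modification were higher in both pairs in 46 of 78 cases (59%) and lower in 4, with 13 higher and 0 lower at an unadjusted p under 0.05 and a median log2 fold change of 0.109. RPUSD2, a pseudouridine synthase, had 6.22 and 9.20 CPM in EV and 8.37 and 13.9 CPM in STIM1::MXD3. PUS7, another pseudouridine synthase, had 47.1 and 56.0 CPM in EV and 59.8 and 65.1 CPM in STIM1::MXD3. The groups overlapped for RPUSD2 and did not for PUS7. Of 23 aminoacyl-tRNA synthetases 13 were higher and 1 lower in both pairs, led by FARSB, the phenylalanyl subunit, with ratios of 0.32 and 0.20.

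DNA replication had the highest share of the lists. Of 48 genes, 37 (77.1%) were higher and 1 lower in both pairs, 11 were higher and 0 lower at an unadjusted p under 0.05, and the median was 0.128, with 0.15 in pair 1 and 0.121 in pair 2. GINS1, a subunit of the replicative helicase, had 25.7 and 37.4 CPM in EV and 36.5 and 50.6 CPM in STIM1::MXD3, with overlap (log2 fold change 0.47 ± 0.10, edgeR adjusted p 0.206). PCNA, the sliding clamp, had 69.5 and 91.5 CPM in EV and 100 and 103 CPM in STIM1::MXD3, with no overlap, and FEN1, the flap endonuclease, had ratios of 0.29 and 0.44. The MXD3 libraries had 38.5 and 49.9 CPM of GINS1 and 97.4 and 99.5 CPM of PCNA.

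Wild-type MXD3, set against the same EV libraries, also had medians above 0 for these lists. They were 0.161 for DNA replication, 0.096 and 0.1 for small- and large-subunit assembly, 0.098 for RNA polymerase I, 0.062 for tRNA modification and 0.055 for core MYC targets. The median of STIM1::MXD3 less MXD3 was -0.011 for DNA replication, 0.032 and 0.023 for small- and large-subunit assembly, -0.035 for RNA polymerase I, 0.029 for tRNA modification and 0.028 for core MYC targets, against 0.003 over all genes tested.

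Genes of mitosis were higher in both pairs in 12 of 40 cases and lower in 3, with medians of 0.105 in pair 1 and -0.1 in pair 2. CDC20, an activator of the anaphase-promoting complex, had 232 and 199 CPM in EV and 224 and 138 CPM in STIM1::MXD3, a ratio of -0.05 in pair 1 and -0.53 in pair 2.

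**Figure D4:**
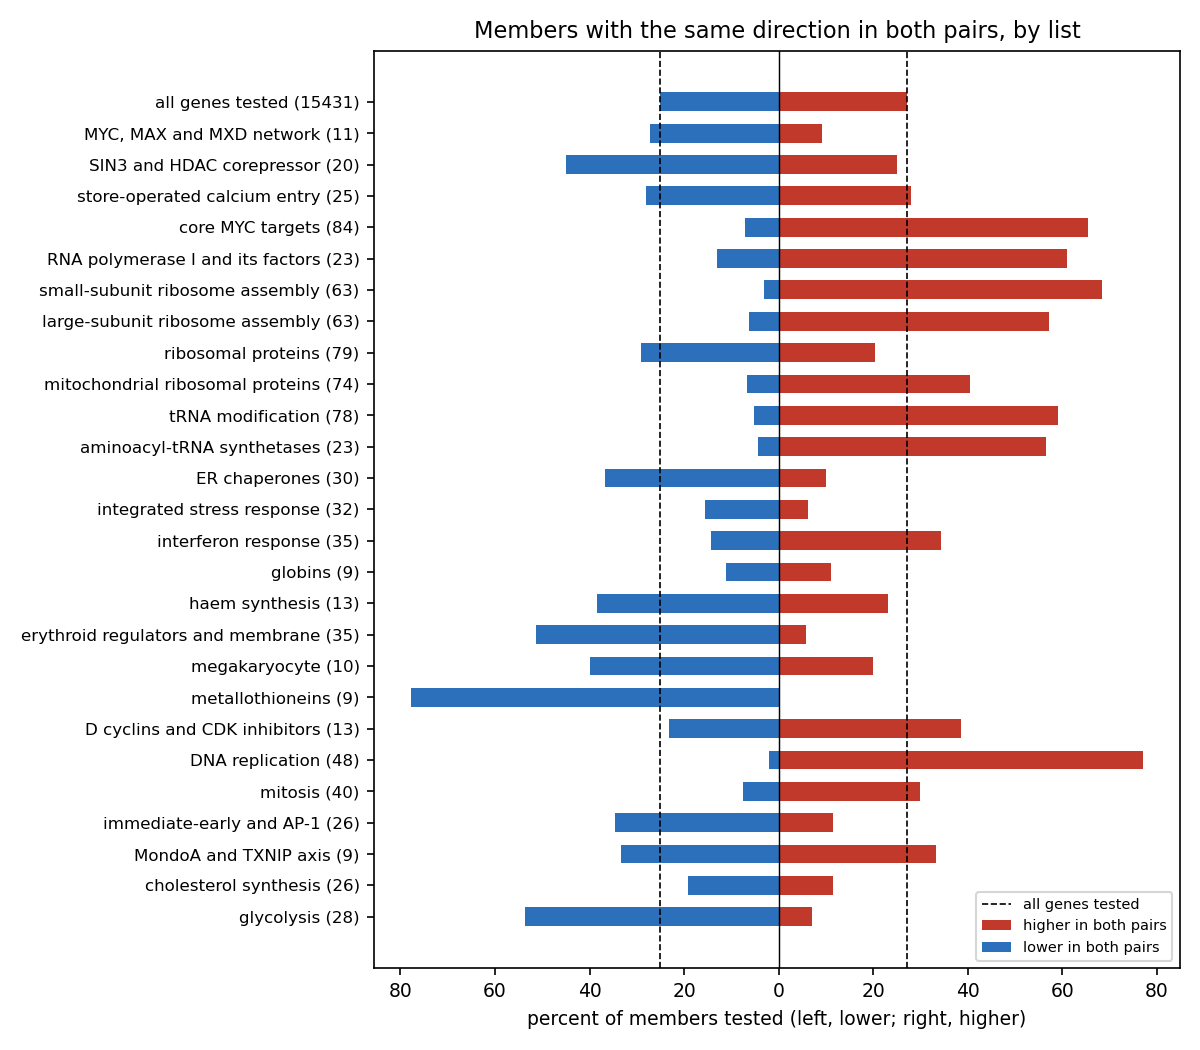
Percent of the members tested of each list (number in brackets) that were higher in both pairs (red, right) or lower in both pairs (blue, left), with the share over all genes tested as dashed lines at 27.1 and 25.1. DNA replication (77.1), small-subunit assembly (68.3) and core MYC targets (65.5) reach furthest to the right, and metallothioneins (77.8), glycolysis (53.6) and erythroid genes (51.4) furthest to the left.

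On the lower side, 18 of 35 erythroid regulators and membrane genes (51.4%) were lower and 2 higher in both pairs, with 0 higher and 7 lower at an unadjusted p under 0.05 and a median log2 fold change of -0.107. The median was -0.009 in pair 1 and -0.192 in pair 2, so pair 2 carried it. For wild-type MXD3 against EV the list had a median of -0.103, and for STIM1::MXD3 less MXD3 of 0.02. GFI1B, a repressor in erythroid and megakaryocytic cells, had 243 and 152 CPM in EV and 215 and 115 CPM in STIM1::MXD3, with overlap and ratios of -0.17 and -0.41 (log2 fold change -0.29 ± 0.08, edgeR adjusted p 0.438). SLC4A1, the band 3 anion exchanger, had 52.4 and 43.2 CPM in EV and 34.9 and 37.8 CPM in STIM1::MXD3, with no overlap and ratios of -0.59 and -0.19 (log2 fold change -0.40 ± 0.12, edgeR adjusted p 0.447). The MXD3 libraries had 199 and 117 CPM of GFI1B and 31.5 and 38.4 CPM of SLC4A1. Of 9 globin genes, 1 was higher and 1 lower in both pairs.

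Immediate-early and AP-1 genes included 9 of 26 lower and 3 higher in both pairs, with 0 higher and 7 lower at an unadjusted p under 0.05. JUN, the AP-1 subunit, had 299 and 204 CPM in EV and 235 and 78.2 CPM in STIM1::MXD3, with overlap. Its log2 ratio was -0.34 in pair 1 and -1.39 in pair 2, and the fit gave -0.90 ± 0.19 (edgeR adjusted p 0.185). The MXD3 libraries split in the same way, with 301 and 87.1 CPM. ZFP36L1 and DUSP1, an mRNA decay factor and a MAP kinase phosphatase, had ratios of -0.25 and -0.64, and -0.21 and -0.74. In each of these genes the ratio of pair 2 lay further from 0.

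Metallothioneins and zinc handling genes were lower in both pairs in 7 of 9 cases (77.8%) and higher in 0, with a median log2 fold change of -0.311. MT1X, a zinc-binding metallothionein, had 9.70 and 15.2 CPM in EV and 4.85 and 10.3 CPM in STIM1::MXD3, with overlap, and ratios of -0.99 and -0.55 (edgeR adjusted p 0.275). MT2A had 22.2 and 38.4 CPM in EV and 10.1 and 31.0 CPM in STIM1::MXD3. The MXD3 libraries had 4.53 and 6.64 CPM of MT1X and 12.1 and 18.9 CPM of MT2A, also below EV in each pair. For wild-type MXD3 against EV the list had a median of -0.964, further from 0 than for the fusion. For STIM1::MXD3 less MXD3 it was 0.384. Neither median was tested.

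Glycolysis genes were lower in both pairs in 15 of 28 cases (53.6%) and higher in 2, with a median of -0.055. For wild-type MXD3 against EV the list had a median of -0.092, and for STIM1::MXD3 less MXD3 of 0.042. ALDOC, an aldolase, had 139 and 88.4 CPM in EV and 110 and 69.8 CPM in STIM1::MXD3, with overlap and ratios of -0.33 and -0.34. TXNIP, which restrains glucose uptake and is a target of the MLX partner MondoA, had 40.5 and 51.0 CPM in EV and 49.3 and 97.7 CPM in STIM1::MXD3, with overlap. Its ratio was 0.28 in pair 1 and 0.94 in pair 2 (edgeR adjusted p 0.329), and the MXD3 libraries had 63.1 and 153 CPM. Over the 9 genes of the MondoA and TXNIP axis, the median was 0.003 for wild-type MXD3 against EV. It was -0.273 for STIM1::MXD3 less MXD3.

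ER chaperones were lower in both pairs in 11 of 30 and higher in 3, with medians of 0.019 in pair 1 and -0.105 in pair 2. HSPA5, the main ER chaperone BiP, had 2559 and 2246 CPM in EV and 2421 and 1667 CPM in STIM1::MXD3. Genes of the integrated stress response had medians of opposite sign, -0.148 in pair 1 and 0.218 in pair 2. Of 25 genes of store-operated calcium entry, the pathway STIM1 gates, 7 were higher and 7 lower in both pairs, and the median was -0.004. The remaining lists, with their counts higher and lower in both pairs, were interferon response (12 and 5 of 35), haem synthesis (3 and 5 of 13), megakaryocyte genes (2 and 4 of 10), D cyclins and CDK inhibitors (5 and 3 of 13), the MondoA and TXNIP axis (3 and 3 of 9), cholesterol synthesis (3 and 5 of 26) and SIN3 and HDAC corepressors (5 and 9 of 20). The 13 mitochondrially encoded genes had a median of -0.867 in pair 1 and 0.946 in pair 2, in the direction of the mitochondrial share of each pair, whose part in the other results was not tested.

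**Figure D5:**
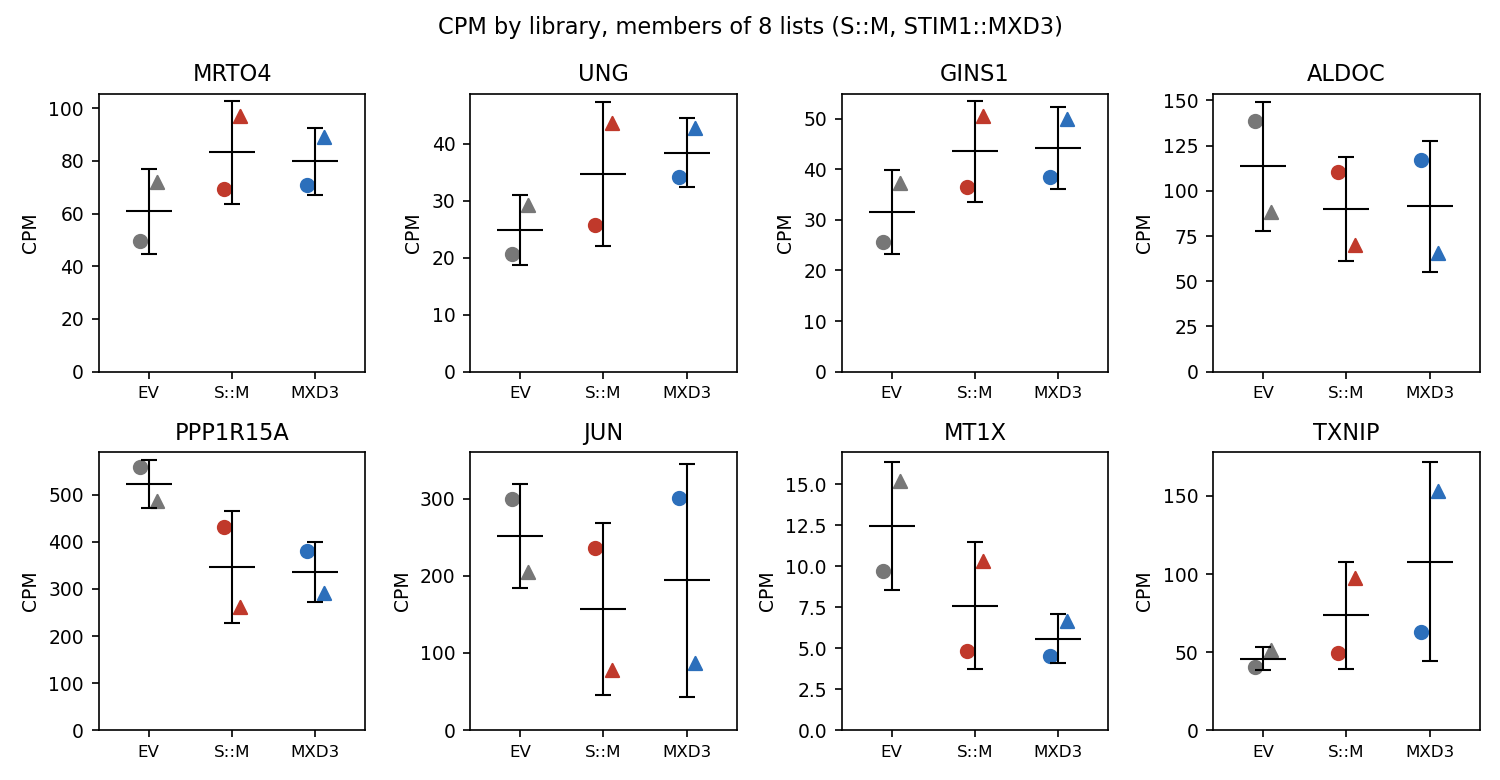
CPM by library of MRTO4, UNG, GINS1, ALDOC, PPP1R15A, JUN, MT1X and TXNIP in EV, STIM1::MXD3 (S::M) and MXD3; circles are replicate 1, triangles replicate 2 and bars the mean with its SD (n = 2), each axis starting at 0. For MRTO4, UNG and GINS1 the 2 libraries of a group lie about as far apart as the means of EV and STIM1::MXD3, or further, and PPP1R15A is lower in both STIM1::MXD3 libraries (431 and 262 CPM) than in both EV libraries (559 and 486 CPM).

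The MYC, MAX and MXD network itself had small differences, with MXD3 not counted in this list. Over 11 genes the log2 fold changes were -0.22 to 0.12, with a lowest edgeR adjusted p of 0.492. MYC had 225 and 213 CPM in EV and 213 and 241 CPM in STIM1::MXD3, with ratios of -0.08 and 0.18 (log2 fold change 0.05 ± 0.09). MAX, the shared partner, had 41.9 and 45 CPM in EV and 38.7 and 46.6 CPM in STIM1::MXD3. MLXIP, which encodes MondoA, had ratios of -0.19 and -0.26, and MXD1, a repressor of the same family as MXD3, -0.18 and -0.23. MNT, MGA, MXD4, MXI1, MYCL, MLX and MLXIPL had fitted values of 0.02, 0.12, -0.01, -0.20, 0.11, -0.05 and 0.00 in that order.

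The E-box CACGTG, which MAX partners bind, reads the same on both strands and was searched in the promoters of RefSeq (GRCh38.p14), 250 bases before to 50 after a start. Of 11468 genes tested that had such a window, 1405 (12.3%) held it in at least 1 window. The share was 34 of 68 (50%) for core MYC targets, 23 of 53 (43.4%) for small-subunit assembly and 18 of 55 (32.7%) for large-subunit assembly. It was 5 of 40 (12.5%) for DNA replication, 6 of 62 (9.68%) for tRNA modification and 4 of 63 (6.35%) for ribosomal proteins. RNA polymerase I and its factors had 2 of 19 (10.5%), and the MondoA and TXNIP axis 4 of 9 (44.4%). Of the lists on the lower side, glycolysis had 7 of 25 (28%), metallothioneins 1 of 6 (16.7%) and erythroid genes 1 of 24 (4.17%). Whether the share goes with the direction of a list was not tested. Among the genes named by the rule it was 2 of 11 higher and 1 of 8 lower, with MXD3 and STIM1 kept in the higher set of 12. The promoters of the leading MYC target, the leading large-subunit factor and the higher gene DUSP23 are printed with the motif in capitals, at chr12:109097922-109098221 (UNG), chr1:19251555-19251854 (MRTO4) and chr1:159780712-159781011 (DUSP23), all on the plus strand. The printed promoters are all of higher genes. The motif was also present in those of the lower genes PER1 and ALDOC, and of MLX and MNT, which had small differences. A match describes these letters and is not a bound site.
UNG: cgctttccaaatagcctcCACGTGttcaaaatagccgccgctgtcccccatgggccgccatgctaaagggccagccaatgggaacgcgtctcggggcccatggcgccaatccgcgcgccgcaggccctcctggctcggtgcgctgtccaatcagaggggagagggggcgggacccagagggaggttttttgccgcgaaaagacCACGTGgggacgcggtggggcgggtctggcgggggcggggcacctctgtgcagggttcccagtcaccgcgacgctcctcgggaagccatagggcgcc
MRTO4: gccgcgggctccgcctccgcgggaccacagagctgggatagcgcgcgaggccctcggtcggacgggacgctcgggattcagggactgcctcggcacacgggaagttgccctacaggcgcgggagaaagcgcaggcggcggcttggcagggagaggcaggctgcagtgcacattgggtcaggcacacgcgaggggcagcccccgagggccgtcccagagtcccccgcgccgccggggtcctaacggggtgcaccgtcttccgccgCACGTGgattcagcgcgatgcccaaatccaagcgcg
DUSP23: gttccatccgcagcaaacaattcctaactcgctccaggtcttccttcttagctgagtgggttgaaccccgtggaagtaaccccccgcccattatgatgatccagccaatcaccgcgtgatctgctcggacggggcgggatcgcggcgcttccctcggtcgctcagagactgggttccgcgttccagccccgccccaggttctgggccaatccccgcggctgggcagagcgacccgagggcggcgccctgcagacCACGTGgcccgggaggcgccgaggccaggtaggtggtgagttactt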

How the data were processed

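The raw counts per gene deposited by the authors, 1 table per library under NCBI Gene identifiers, were used for all 6 libraries. Per the submitters' processing notes and the study, poly A libraries were read as pairs, aligned to hg19 with HISAT2 2.2.1 and counted with featureCounts 2.0.1, while the annotation, the strand setting and the counting of pairs were not given in the sources used here. Counts of overlapping and near-identical genes are therefore uncertain. Of 25702 identifiers, 23696 (92.2%) matched a symbol, and unmatched ones stayed in library sizes.

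Genes passing filterByExpr (15431) were tested in R 4.3.3 with edgeR 4.0.16 (two-sided quasi-likelihood test), after TMM scaling, over 6 libraries with group and replicate number as terms. P-values were adjusted by Benjamini-Hochberg over all genes at a threshold of 0.05, and SEs were the log2 fold change over the root of F. Pair ratios were differences of log2 CPM with a prior count of 2. The replicate numbers come from the labels, which do not say what a number shares. Deviations of same-numbered libraries correlated at r = 0.270, 0.364 and 0.450 over the 3 pairs of groups, for all genes tested. For 10250 genes averaging 5 CPM or more they correlated at 0.621, 0.707 and 0.792. P-values measure the spread between these libraries that remains after the replicate term. That spread had 2 residual degrees of freedom and was moderated over genes by edgeR with 13.9 prior degrees of freedom. Named genes were MXD3, STIM1, all called genes, the 12 highest and 12 lowest by the rule in the text, the member of each list with the smallest p per direction, the MYC network and neighbours within 50 kb. Gene lists were written from general knowledge, and values of some genes that the rule names are not reported here. The contrast, lists and rules were chosen with earlier results of these data known. On simulated counts for STIM1::MXD3 against EV (15427 genes), 99 of 100 genes at an absolute log2 change of 1 and 100 of 100 at 2 were recovered, with 19 unchanged genes called. The changed genes were drawn only from those averaging 5 CPM or more. Counts were simulated with a dispersion that depended only on the level of a gene, without spread between genes of 1 level. The recovery therefore does not give the power of the reported fit on the real counts. Alternatives included DESeq2 1.42.0, other scalings and filters, GC and length offsets over 14248 genes, counts divided by 2 because 59.8% to 67.3% of low counts were even, and libraries left out. Genes in regions with further copies in hg19 were left out of 1 alternative added after seeing the data.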

Additional observations from a re-analysis of the deposited data

Results flagged for a closer look

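STIM1 was the 1 result singled out because its effect differed between the 2 inserts. The effect of STIM1::MXD3 less that of MXD3, each against the same EV libraries, was 1.42 on the log2 scale (edgeR adjusted p 1.97e-07), the only gene called of 15431 in STIM1::MXD3 against MXD3 (0.00648%). Both STIM1::MXD3 libraries (471 and 453 CPM) lay above both MXD3 libraries (187 and 159 CPM).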

How the results depend on the processing

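The count of genes called for STIM1::MXD3 against EV was 3, and it moved with the setting. Without the replicate block it was 1, with DESeq2 and the block 29, with no filter 99, with the 4 libraries alone 62, with halved counts 6 and with GC and length offsets 11. Leaving out 1 library gave 14 to 170, and leaving out regions copied in hg19 gave 2. STIM1::MXD3 against MXD3 gave 1 call, 0 without the block (edgeR, with 156 genes at an unadjusted p under 0.05, and 1 by DESeq2 without it), 11 with DESeq2 and the block, 59 with no filter, 2 with halved counts, and 6 to 137 with 1 library left out. The prior degrees of freedom that edgeR estimated were 13.9 in the fit reported, 3.94 without the block and without limit in the fits with no filter, with the 4 libraries alone, without EV replicate 1 and without EV replicate 2. MXD3 passed the threshold in all 14 alternatives, with log2 fold changes of 7.27 to 7.76, and STIM1 in 13 of 14, with 1.20 to 1.37. Without the replicate block STIM1 was 1.28 with an edgeR adjusted p of 0.359. Of 928 alternative values of named genes, 842 kept direction and side of the threshold, 64 passed it, 3 (VPS52) no longer did and 19 turned direction. MLXIPL turned without the block (-0.0261), with DESeq2 and the block (-0.0034), with DESeq2 without it (-0.0332), with RLE size factors (-0.0037), with 4 libraries (-0.0123), and with 1 library left out (-0.21 to 0.22). MXD4 was 0.0392 with GC and length offsets. With 1 library left out, the lowest and highest values were -0.0036 to 0.23 for MYCL, -0.44 to 0.027 for MXI1, -0.69 to 0.0305 for CDKN1C, -0.11 to 0.0528 for MAX, -0.0537 to 0.30 for MGA, -0.0274 to 0.0768 for MNT, -0.0412 to 0.0162 for MXD4 and -0.0486 to 0.15 for MYC. Of 434 alternative medians of lists, 45 moved by more than the pair spread. Medians stayed above 0 in 15 of 15 settings for core MYC targets (0.07 to 0.147), small-subunit assembly (0.067 to 0.166), large-subunit assembly (0.044 to 0.177), tRNA modification (0.088 to 0.131) and DNA replication (0.089 to 0.174), and below 0 for erythroid genes (-0.239 to -0.006), metallothioneins (-0.499 to -0.271) and glycolysis (-0.069 to -0.034). They also stayed above 0 for RNA polymerase I (0.058 to 0.115), aminoacyl-tRNA synthetases (0.04 to 0.1) and interferon response (0.018 to 0.111). The K562 markers stayed below 0 (-0.14 to -0.002). All settings used the same libraries or a part of them, so a constant sign is not independent evidence. Where a library was left out, the remaining 1 of its group was assumed to vary like the other groups. Changes under 2-fold were not simulated, so the depth at which they are called is not given. The cause of the moved counts was not tested.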

Other observations

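DESeq2 with the replicate number as a term called 29 of 15431 genes, 8 higher and 21 lower, of which 2 were also called by edgeR. All 29 had the same sign in both pairs, against 52.2% of all genes tested without MXD3 and STIM1. For 9 the groups did not overlap, against 12% of all genes tested on the higher side and 10% on the lower. The same libraries called these genes, which favours 1 sign in both pairs, so these counts are a description. Named after their values were seen, ASS1, the argininosuccinate synthase of arginine synthesis, had 28.8 and 42.2 CPM in EV and 38.9 and 70.7 CPM in STIM1::MXD3, and BCL6, a transcriptional repressor, had 60.1 and 38.6 CPM in EV and 39.7 and 26.0 CPM in STIM1::MXD3. Their edgeR adjusted p-values were 0.0937 and 0.185. GDF15, a secreted stress-response factor, had 1124 and 716 CPM in EV and 959 and 501 CPM in STIM1::MXD3, and SLC3A2, the heavy chain of amino acid transporters, 649 and 496 CPM against 546 and 373 CPM. Both were lower in each pair, and the edgeR adjusted p of SLC3A2 was 0.324. The groups overlapped for each of ASS1, BCL6, GDF15 and SLC3A2.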
